A study of Mus musculus with 12 samples.

Results

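Cytochrome P450 transcripts were examined in mouse tumours that model cholangiocarcinoma of the intrahepatic bile ducts. Members were taken by name: every gene symbol beginning with Cyp and a digit whose level, in FPKM (mapped fragments scaled by transcript length and library size), was above 0 in at least 1 library. Of 105 such symbols among the 24421 listed, 86 were members and 19 were listed at 0 in all 12 libraries. The members fell into 16 P450 families and included 3 annotated pseudogenes. Bulk RNA sequencing of total RNA had been done on 425-ICC tumours after 8 days of treatment, with 3 samples in each of 4 groups. Combination tumours had received GC together with dual immune checkpoint blockade, and GC tumours had received GC alone. GC is not spelled out in the labels and is taken to mean gemcitabine with cisplatin. ICB tumours had received dual checkpoint blockade alone (against CTLA-4 and PD1, going by the title of the series), and Control tumours had received control IgG. All groups carried the same tumour model, and strain, sex, age and host organ are not in the labels. The labels also do not tie each sample to an animal of its own, and p-values therefore cover only the variation among these samples, which may be technical.

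Cytochrome P450 enzymes are haem-containing monooxygenases that insert oxygen into lipophilic substrates with electrons passed on by P450 reductase or, in mitochondria, by ferredoxin. Families 1 to 3 are known mainly for the clearance of drugs and other foreign compounds in hepatocytes and enterocytes, family 4 for the hydroxylation of fatty acids and eicosanoids, and the higher families for steps in the synthesis or breakdown of bile acids, sterols, steroid hormones, retinoids and vitamin D. Most members of families 2 and 3 are expressed at high levels in hepatocytes under the control of nuclear receptors such as Nr1i2 and Nr1i3 and of the hepatocyte factor Hnf4a, and several of them differ between the livers of male and female mice.

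Promoter stretches are printed for genes picked together with a searched motif that each holds, which is in capitals. They are not typical of the members, as most member promoters searched held neither of the motifs marked here. Each stretch runs 5′ to 3′ on the gene's strand and ends at the RefSeq start of the gene (GRCm38.p6) or, for Cyp2c70 and Cyp2b10, 47 and 38 bases before it, where an annotated exon begins. Cyp3a16 (chr5:145469724-145469843, minus strand) and Cyp3a41a (chr5:145720137-145720256, minus strand) were above 0 only in 2 Combination libraries. Cyp2c70 (chr19:40187334-40187406, minus strand) and Cyp8b1 (chr9:121916306-121916425, minus strand) are bile acid enzymes with their highest levels in the same 2 libraries. Cyp2c65 (chr19:39060886-39061005, plus strand) was above 0 only in the remaining Combination library, replicate 1. In these 5 the capitals mark the letters CAAAGTCCA, a match to the Hnf4a motif. Cyp2b10 (chr7:25897538-25897619, plus strand) was the 1 member called in the test of the interaction, and its capitals mark a match to TTGCNNAA, the C/EBP motif.
Cyp3a16: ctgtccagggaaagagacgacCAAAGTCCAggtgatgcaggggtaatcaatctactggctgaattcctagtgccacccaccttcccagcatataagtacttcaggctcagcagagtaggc
Cyp3a41a: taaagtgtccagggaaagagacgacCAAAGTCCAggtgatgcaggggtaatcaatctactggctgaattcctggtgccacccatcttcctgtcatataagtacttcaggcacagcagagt
Cyp2c70: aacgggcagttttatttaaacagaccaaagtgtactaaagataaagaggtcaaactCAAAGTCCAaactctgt
Cyp8b1: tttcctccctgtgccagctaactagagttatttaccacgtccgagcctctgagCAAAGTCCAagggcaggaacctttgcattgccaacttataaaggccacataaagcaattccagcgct
Cyp2c65: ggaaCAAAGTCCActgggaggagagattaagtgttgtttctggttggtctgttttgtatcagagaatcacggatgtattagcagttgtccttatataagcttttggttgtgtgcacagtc
Cyp2b10: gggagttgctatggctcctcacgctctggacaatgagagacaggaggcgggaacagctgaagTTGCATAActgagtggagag

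RefSeq promoters were matched to 64 of the 86 members, and the 250 bases before each start were searched on both strands. The letters CAAAGTCCA were found in 11 of the 64 promoters (17.2%), against 103 of 27025 mouse promoters of the same length (0.381%). The 11 were those of Cyp2c40, Cyp2c65, Cyp2c67, Cyp2c68, Cyp2c69, Cyp2c70, Cyp3a11, Cyp3a16, Cyp3a41a, Cyp3a41b and Cyp8b1. All of these but Cyp8b1 belong to subfamilies 2c and 3a, whose copies share sequence, so they are not independent matches, and the match of Cyp3a11 lies inside the gene as GENCODE M21 annotates it. The TATA letters TATAAA were present in 28 of 64 member promoters (43.8%) and in 13% of all promoters. TTGCNNAA was present in 12 (18.8%) against 9.55%. GCGTG (the xenobiotic response element core) was found in 18.8% against 28.2%, TGANTCA (AP-1) in 6.25% against 6.87%, TTCNNNGAA (STAT5) in 3.13% against 7.18%, TTTATTG (CDX2) in 3.13% against 4.42%, and TCACNCCA (part of the sterol response element) in 1.56% against 3.58%.

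The libraries differed in the tissues they held, and these values stand beside every result that follows. Transcripts of 20 hepatocyte markers made up 0.693%, 18.1% and 7.32% of all FPKM in the Combination libraries, between 0.129% and 1.18% in GC, between 0.0709% and 0.409% in ICB and between 0.00196% and 0.015% in Control libraries. Of the sum of 4288 FPKM in Combination replicate 1, Apoa1 alone made up 3721 FPKM. The mean log2(FPKM + 1) of the 20 markers was 4.32, 10.7 and 9.32 in Combination libraries. It was 5.29, 4.33 and 7.11 in GC, 3.22, 4.83 and 5.05 in ICB, and 1.80, 1.78 and 0.523 in Control libraries. By this mean, Combination replicate 1 lay below every GC library and within the ICB range. None of the 20 was at 0 in a Combination or GC library, and up to 5 were at 0 in a Control library. Albumin was at 217, 45398.5 and 16866.5 FPKM in Combination, between 174 and 893 FPKM in GC, between 41.7 and 369 FPKM in ICB and between 2.95 and 35.2 FPKM in Control libraries. Combination replicate 1 held small intestinal transcripts: 17 such markers made up 0.931% of its FPKM and between 0.0034% and 0.111% of that of the other 11 libraries, with lactase (Lct) at 33.0 FPKM against 0 in every other library. Skeletal muscle markers made up 0.695% of FPKM in GC replicate 2 and 0.242% in Control replicate 2, and at most 0.00219% elsewhere. The part of these tissues in the P450 results was not tested, and in bulk tissue fewer cells of a type and less RNA per cell cannot be told apart.

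The summed P450 level was highest in Combination tumours and varied more there than in any other group. It was 409.7, 9172 and 4425 FPKM in Combination libraries, 178, 211 and 521 FPKM in GC libraries, 136, 127 and 161 FPKM in ICB libraries and 109.8, 113 and 140.5 FPKM in Control libraries. The Combination sums lay above all ICB and Control sums, while the lowest of them lay below the highest GC sum. The group means were 4669 ± 4386 FPKM in Combination, 304 ± 189 FPKM in GC, 141 ± 17.6 FPKM in ICB and 121 ± 17 FPKM in Control (SD, n = 3 each). At least 100 FPKM was reached by 0, 26 and 14 members in Combination libraries and by 1 member, Cyp2e1, in GC replicate 3, but by 0 in the other 8 libraries.

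The make-up of this pool differed along with its size. Family 2 took 35.8%, 69.0% and 73.1% of the summed P450 FPKM in Combination libraries, 34.8%, 34.1% and 57.5% in GC, 11.7%, 26.7% and 29.8% in ICB and 12.5%, 10.2% and 8.63% in Control libraries. All Combination and GC shares lay above all ICB and Control shares, and ICB overlapped Control only through ICB replicate 1. Family 3 took 17%, 20.1% and 13.1% in Combination, between 3.30% and 8.88% in GC, between 0.273% and 4.13% in ICB and at most 0.401% in Control libraries. Family 4 took the reverse place, with 33.5%, 4.17% and 4.43% in Combination, between 15.7% and 31.2% in GC, between 31.5% and 40.7% in ICB and between 33.8% and 37.6% in Control libraries. The single most abundant member was Cyp4f14 in Combination replicate 1, Cyp2e1 in Combination replicates 2 and 3 and in GC replicates 2 and 3, Cyp26b1 in Control replicate 1, and Cyp20a1, a P450 with no settled substrate, in the other 6 libraries.

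**Figure D1:**
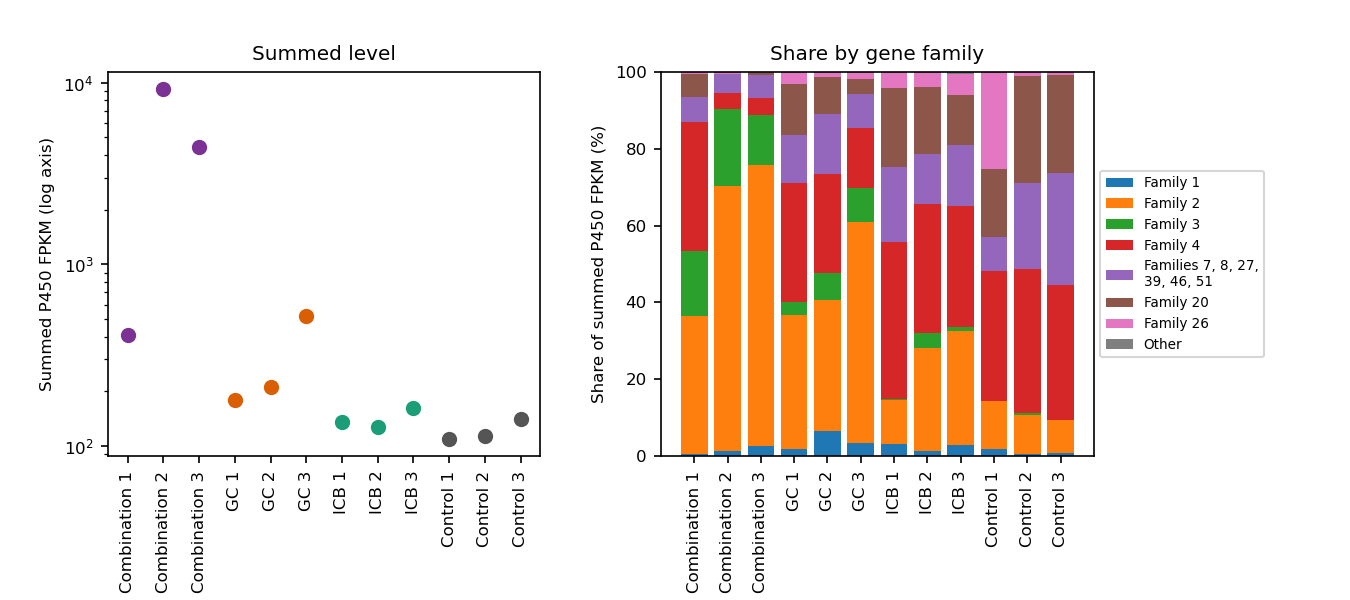
Summed FPKM of all 86 P450 members in each of 12 libraries on a logarithmic axis (left, 1 point per library) and the share of that sum held by each gene family in percent (right, stacked bars, with groups in the order Combination, GC, ICB and Control). Combination replicates 2 and 3 stand at 9172 and 4425 FPKM, where families 2 and 3 fill most of the bar, while family 4 and family 20 fill more of the Control bars.

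Most members were hepatic genes with little or no signal in Control tumours. The 3 Control libraries were all at 0 for 53 of the 86 members, 16 members were above 0 in all 12 libraries and 8 in only 1. For testing, a mean of at least 1 FPKM over the 12 libraries was asked of each gene, which 64 members and 12765 genes in all passed. The 22 members under it had a highest value of 9.14 FPKM (Cyp2c65). Of the 64, 27 passed this filter on the GC, ICB and Control libraries alone and 37 only through the Combination libraries, and counts over the 64 therefore do not measure how often P450 genes differ. The 2 highest of the 12 libraries were Combination replicates 2 and 3 for 46 of the 64 (71.9%), against 1350 of 12765 genes (10.6%).

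**Figure D2:**
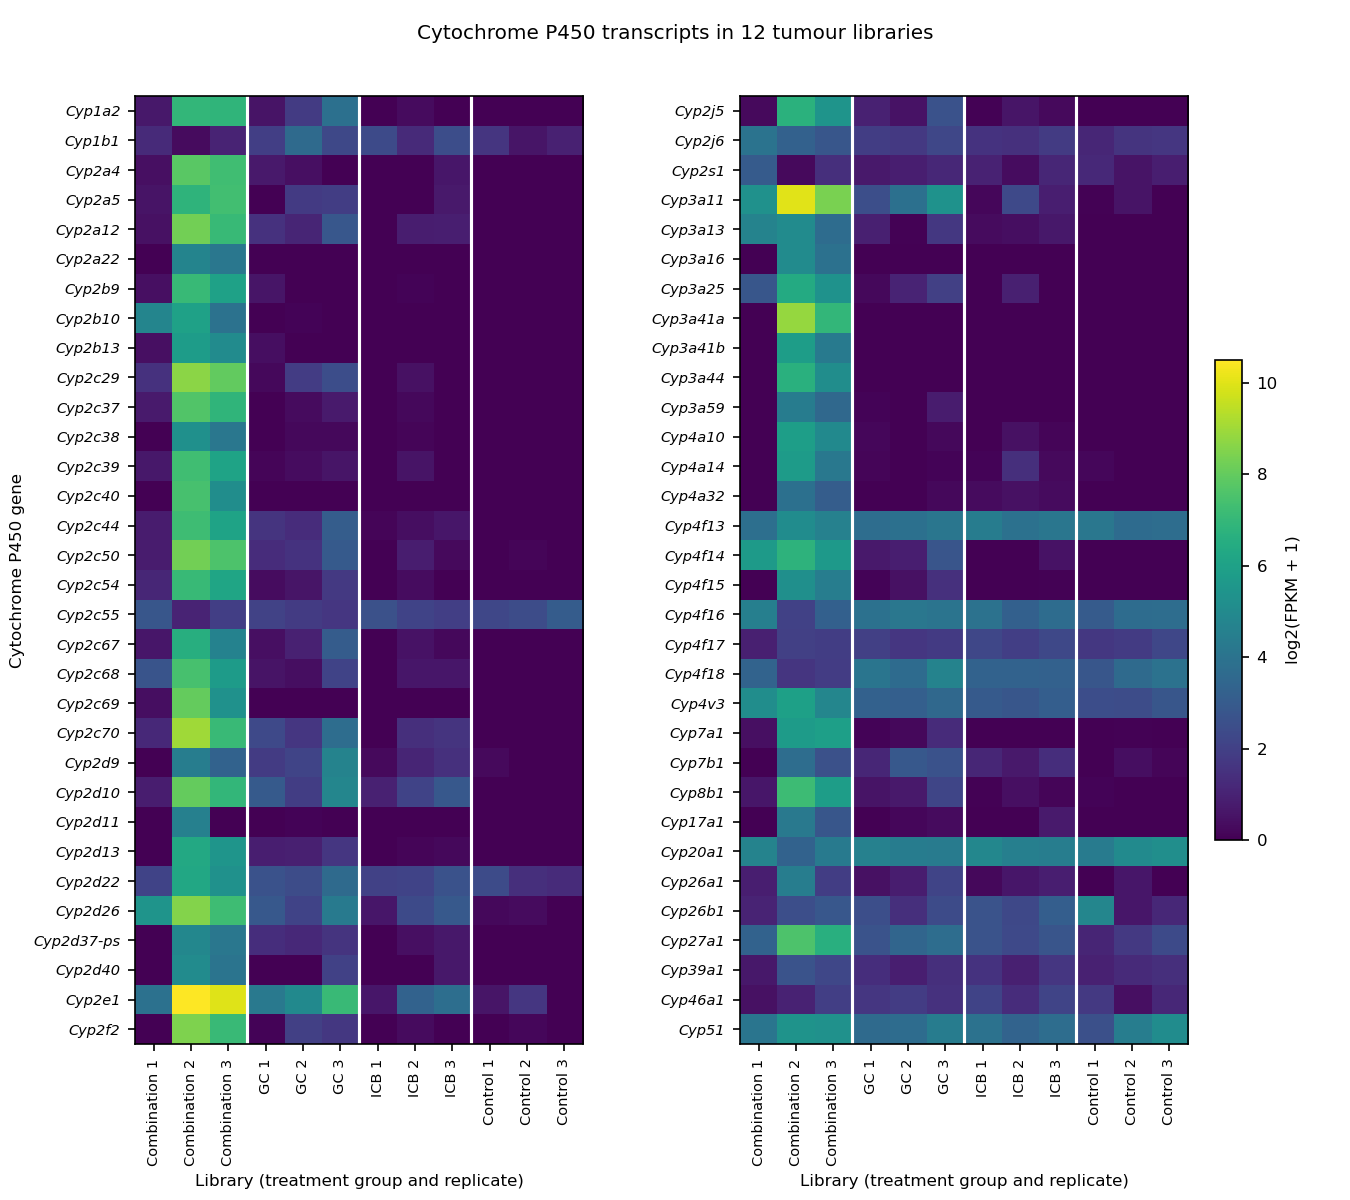
Heat map of log2(FPKM + 1) for the 64 tested P450 genes (rows, ordered by family) in 12 libraries (columns, in the order Combination, GC, ICB and Control, white lines between groups). Combination replicates 2 and 3 hold the brightest cells in families 1 to 3, whereas Cyp20a1, Cyp4f13, Cyp4f16 and Cyp51 have signal in every column.

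Combination against Control asked what both treatments together were accompanied by, and 13 P450 genes rose and 0 fell at an adjusted p under 0.05. These p-values come from limma on log2(FPKM + 1), fitted to all 12 libraries and adjusted by the Benjamini-Hochberg method over 12765 genes, of which 3.95% were called in this comparison and 3.55% were called higher. The median difference of the 64 P450 genes was 3.85 on the log2(FPKM + 1) scale, and that of all genes was -0.29. Every Combination library lay above every Control library for 31 of the 64, against 9.74% of all genes, and below for 0, against 13.2%. The median and these counts include the 37 members that pass the filter only through the Combination libraries. They therefore do not measure how often P450 genes differ. Among the 27 members that pass the filter without Combination libraries, 6 rose (Cyp27a1, Cyp2d26, Cyp2e1, Cyp2j6, Cyp3a11 and Cyp4v3), where 3.1% of 12200 such genes were called. Log2 differences depend on the pseudocount of 1 wherever a group is listed at 0, and no fold is given for those genes.

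The xenobiotic P450 genes supplied 8 of the 13, out of 21 tested in this role, where 3.55% of all genes were called higher. Of the 8, only Cyp2d26, Cyp2e1 and Cyp3a11 pass the filter without the Combination libraries. Cyp3a11 (ENSMUSG00000056035.8, chr5:145854426-145879964, minus strand, GRCm38), the main drug-metabolising family 3 enzyme of mouse liver and a target of the receptor Nr1i2, was at 39.2, 1055 and 329 FPKM in Combination libraries, 4.77, 13.6 and 40.4 FPKM in GC, 0.147, 4.0 and 0.826 FPKM in ICB and 0.0463, 0.452 and 0 FPKM in Control libraries. All Combination values lay above all ICB and Control values, but that of replicate 1 was below GC replicate 3. The difference between Combination and Control was 7.71 ± 1.04 (log2, SE; limma adjusted p = 0.00175). Cyp2e1 (ENSMUSG00000025479.9, chr7:140763739-140774987, plus strand), which oxidises ethanol and paracetamol, was at 14.1, 1442 and 998 FPKM in Combination, 17.9, 30.2 and 139 FPKM in GC, 0.544, 8.89 and 12.8 FPKM in ICB and 0.494, 2.17 and 0 FPKM in Control libraries. It was higher by 7.38 ± 1.51 in Combination than in Control (limma adjusted p = 0.0205), and all 3 GC values lay above the Combination replicate 1 value.

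Cyp2b10, Cyp3a13 and Cyp2d26 were high in all 3 Combination libraries, the intestinal one included. Cyp2b10 (ENSMUSG00000030483.14, chr7:25897620-25926624, plus strand), the classic target of Nr1i3, was at 26.2, 63.6 and 14.7 FPKM in Combination libraries, at 0.0809 FPKM in GC replicate 2 and listed at 0 in the remaining 8 libraries. The Combination values did not overlap those of any other group, and the difference from Control was 4.92 ± 0.42 (limma adjusted p = 0.000169). Cyp3a13 (chr5:137892932-137921619, minus strand), known from both liver and intestine, was at 24.6, 32.4 and 11.9 FPKM in Combination, 0.885, 0.0504 and 2.23 FPKM in GC, 0.223, 0.328 and 0.585 FPKM in ICB and 0 in all Control libraries (4.48 ± 0.43, limma adjusted p = 0.000313). Cyp2d26 (chr15:82790101-82794294, minus strand) was at 42.0, 374 and 150.5 FPKM in Combination, 6.34, 3.34 and 18.2 FPKM in GC, 0.535, 4.12 and 6.66 FPKM in ICB and 0.179, 0.232 and 0 FPKM in Control libraries, with no overlap between Combination and any other group (6.89 ± 0.79, limma adjusted p = 0.000753). Both GC and ICB libraries also lay wholly above Control for this gene. Cyp2b10, Cyp3a11 and Cyp3a25 belong, like Cyp3a13, to a list of P450 genes known from the intestine. Of the 5 tested members of that list these 4 rose and Cyp2c55 did not, where 3.55% of all genes were called higher. Of these 4, only Cyp3a11 passes the filter without the Combination libraries, so the count does not measure how often such genes differ. Cyp1a1, Cyp2c65 and Cyp2c66, also on that list, were under the filter.

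The other 3 xenobiotic genes that rose were Cyp3a25 (4.87 ± 0.76), Cyp2c29 (6.05 ± 1.43) and Cyp2c54 (4.80 ± 1.15), each listed at 0 in all Control libraries. Their values in Combination replicate 1 were 6.03, 1.82 and 1.19 FPKM, and their values in Combination replicates 2 and 3 lay between 40.2 and 405 FPKM. Cyp2c68, a further family 2 gene on chromosome 19, was at 5.58, 173 and 52.4 FPKM in Combination libraries and at most 3.33 FPKM elsewhere (5.30 ± 0.91, limma adjusted p = 0.00832). The calls of Cyp2c29, with an adjusted p of 0.0388 by limma, and Cyp2c54, with 0.0414, were the closest to the threshold and were lost when any 1 library other than Combination replicate 1 was left out. Those of Cyp2e1 and Cyp27a1 (both 0.0205) were lost without any 1 Control library and without Combination replicate 2 or 3.

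The remaining 13 tested xenobiotic genes did not pass the test. Apart from Cyp1b1 and Cyp2d9, their 2 highest values were in Combination replicates 2 and 3. Cyp2c37 was at 0.696, 199 and 117 FPKM in Combination libraries and at most 0.688 FPKM elsewhere, and with a difference from Control of 5.10 ± 1.32 (limma adjusted p = 0.0553) it lay just outside the threshold. Cyp2a5, the coumarin hydroxylase, was at 0.452, 114 and 160.2 FPKM in Combination, 0, 2.47 and 2.73 FPKM in GC, 0, 0 and 0.641 FPKM in ICB and 0 in all Control libraries. Cyp2d22 was above 0 in all 12 libraries, at 3.37, 77.0 and 38.3 FPKM in Combination, 5.19, 4.47 and 11.2 FPKM in GC, 3.06, 3.33 and 5.24 FPKM in ICB and 4.31, 1.64 and 1.46 FPKM in Control libraries. Its Combination replicate 1 value lay within the Control range, so the groups overlapped (2.87 ± 0.83, limma adjusted p = 0.0763). Among abundant members outside the role lists, Cyp2c50 was at 0.720, 307 and 188 FPKM and Cyp2a12 at 0.383, 303 and 134 FPKM in Combination libraries, with at most 6.84 and 6.30 FPKM elsewhere. Cyp1a1, the inducible target of Ahr, was under the filter.

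**Figure D3:**
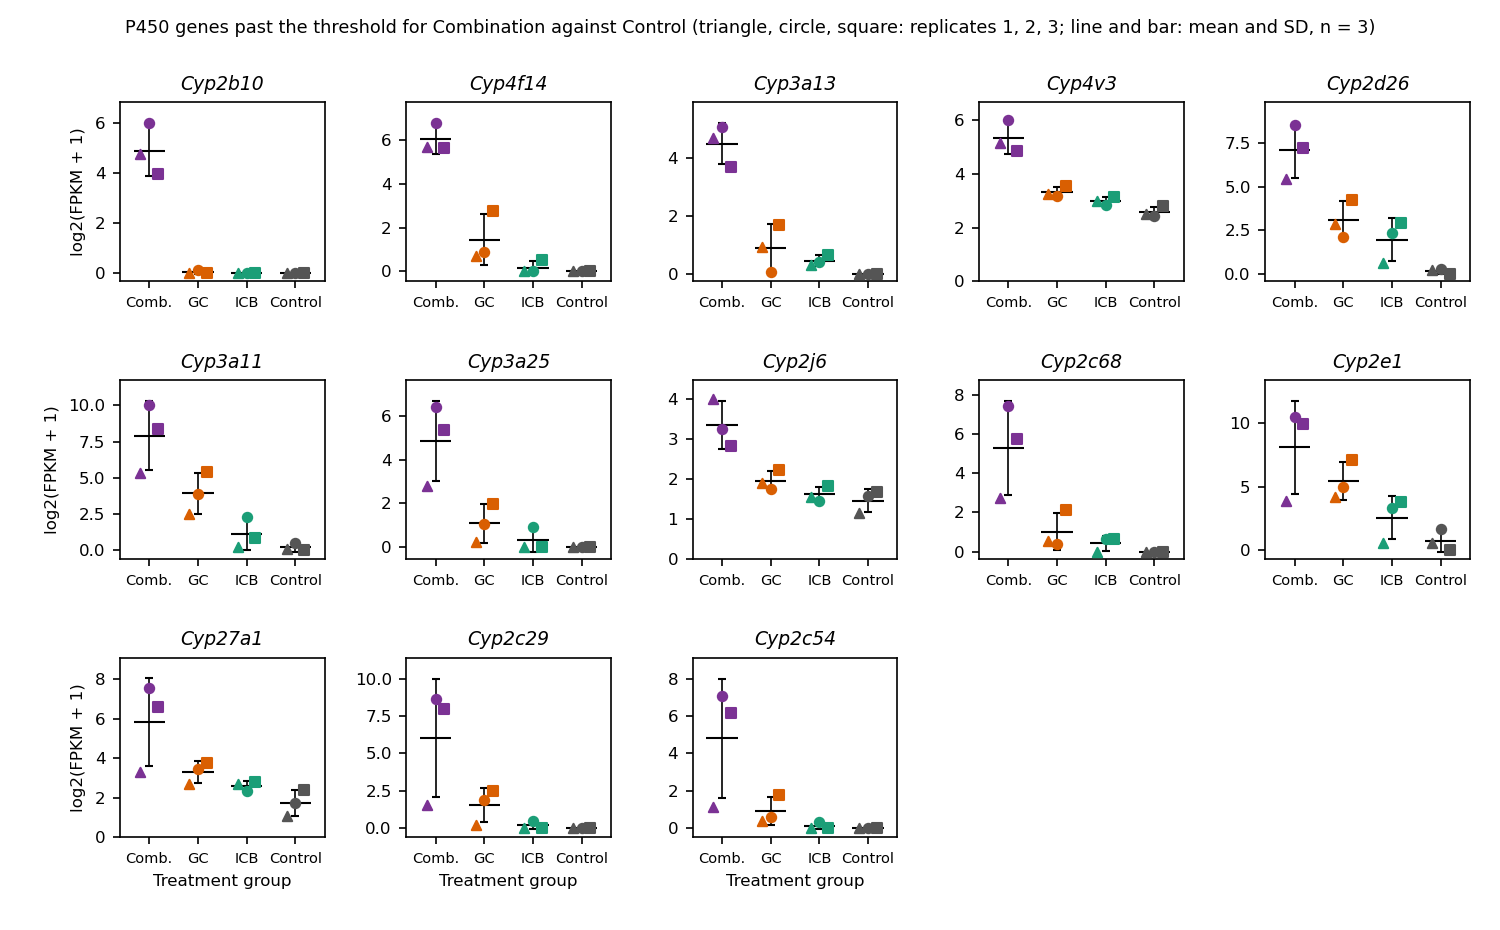
The 13 P450 genes past the threshold for Combination against Control, as log2(FPKM + 1) by treatment group (triangle, circle and square for replicates 1, 2 and 3, with the mean and SD of 3 libraries). In the panels of Cyp2b10, Cyp4f14, Cyp3a13, Cyp4v3 and Cyp2d26 the Combination points do not overlap any other group, and in those of Cyp2e1, Cyp2c29 and Cyp2c54 replicate 1 lies far below replicates 2 and 3.

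Of 11 tested members with fatty acids and eicosanoids as substrates, 3 rose, 0 fell and 8 did not pass the test, where 3.55% of all genes were called higher. Of the 3, Cyp4f14 passes the filter only through the Combination libraries. Cyp4f14 (ENSMUSG00000024292.15, chr17:32905070-32917342, minus strand), an omega-hydroxylase of fatty acids and leukotriene B4, was at 51, 109.6 and 48.8 FPKM in Combination, 0.627, 0.825 and 5.89 FPKM in GC, 0, 0 and 0.410 FPKM in ICB and 0 in all Control libraries. No Combination value came near those of another group, and the difference from Control was 6.04 ± 0.50 (limma adjusted p = 0.000169). Cyp4v3 (chr8:45304944-45333216, minus strand), whose human counterpart hydroxylates medium-chain fatty acids, had the highest Control level of the 13 called genes: 34.0, 61.6 and 27.2 FPKM in Combination, 8.51, 8.05 and 10.7 FPKM in GC, 6.95, 6.05 and 7.71 FPKM in ICB and 4.64, 4.43 and 5.99 FPKM in Control libraries. The 4 groups did not overlap for this gene, and Combination was higher than Control by 2.72 ± 0.29 (limma adjusted p = 0.000464). Cyp2j6, an arachidonic acid epoxygenase, had its highest value in the intestinal library, with 15.0, 8.53 and 6.06 FPKM in Combination against 1.21, 1.99 and 2.18 FPKM in Control libraries (1.89 ± 0.31, limma adjusted p = 0.00624).

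The members of this role that did not pass included genes seen almost wholly in the liver-rich libraries. Cyp4a10 was at 0, 57.6 and 31.0 FPKM and Cyp4a14 at 0, 52.7 and 17.2 FPKM in Combination libraries, both being fatty acid omega-hydroxylases and known targets of Ppara, and no other library exceeded 1.64 FPKM for either. Cyp2j5 was at 0.195, 103 and 42.3 FPKM and Cyp2c44, an epoxygenase, at 0.732, 151 and 66.6 FPKM in Combination libraries, and both were at 0 in all Control libraries. Their differences from Control were 4.13 ± 1.25 and 4.71 ± 1.24 (limma adjusted p = 0.0872 and 0.0593). Cyp4f15 was at 0, 36.7 and 20.8 FPKM in Combination libraries and at most 1.77 FPKM elsewhere. Cyp2j9, Cyp2u1, Cyp4a12a and Cyp4b1 were under the filter, with no value above 4.30 FPKM.

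Of 8 bile acid, sterol and cholesterol enzymes, 1 rose, where 3.55% of all genes were called higher. This was Cyp27a1 (chr1:74713574-74737892, plus strand), the mitochondrial enzyme that oxidises the sterol side chain. It was at 8.81, 188 and 96.8 FPKM in Combination, 5.39, 9.77 and 12.5 FPKM in GC, 5.36, 3.95 and 5.81 FPKM in ICB and 1.10, 2.34 and 4.17 FPKM in Control libraries (4.10 ± 0.84, limma adjusted p = 0.0205). Combination and GC libraries lay wholly above Control, while ICB replicate 2 fell below Control replicate 3. Cyp7a1, the rate-limiting enzyme of bile acid synthesis, was at 0.335, 52.9 and 58.9 FPKM in Combination, 0.0835, 0.164 and 1.48 FPKM in GC, 0 in all ICB and 0, 0.0407 and 0 FPKM in Control libraries (4.01 ± 1.12, limma adjusted p = 0.0695). Cyp8b1, which directs the pathway to cholic acid, was at 0.556, 145 and 55.9 FPKM in Combination and at most 3.52 FPKM elsewhere (4.50 ± 1.24, limma adjusted p = 0.0674). Cyp2c70, which makes the muricholic acids of mice, was at 1.30, 505 and 139 FPKM in Combination, 4.05, 2.13 and 12.4 FPKM in GC, 0, 1.64 and 1.96 FPKM in ICB and 0 in all Control libraries (5.77 ± 1.48, limma adjusted p = 0.054).

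The other 4 enzymes of this role were not confined to the liver-rich libraries. Cyp51, the lanosterol demethylase of cholesterol synthesis, was at 15.8, 40.9 and 39 FPKM in Combination, 11.3, 12.1 and 20.2 FPKM in GC, 14.5, 9.07 and 12.4 FPKM in ICB and 4.83, 20.9 and 33.8 FPKM in Control libraries. Its Control values alone spanned nearly the range of all groups, and the difference of Combination from Control was 0.89 ± 0.58 (limma adjusted p = 0.321). Cyp51 overlaps Akap9 on the opposite strand. Whether reads of the pair were told apart is unknown, because strand use in counting is not given in the sources used here. Cyp39a1, an oxysterol hydroxylase, lay between 0.594 and 5.49 FPKM in Combination and between 0.962 and 1.70 FPKM in Control libraries. Cyp46a1, the cholesterol hydroxylase of neurons, lay between 0.391 and 2.87 FPKM in Combination and between 0.360 and 2.31 FPKM in Control libraries. The oxysterol hydroxylase Cyp7b1 was at 0, 12.3 and 5.12 FPKM in Combination, 1.16, 6.37 and 5.2 FPKM in GC, 1.17, 0.655 and 1.56 FPKM in ICB and 0, 0.312 and 0.0909 FPKM in Control libraries, so that GC and ICB lay wholly above Control and Combination did not.

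Most listed enzymes of steroid hormones, retinoids and vitamin D were under the filter or at 0 in every library. The only tested steroid hormone enzyme was Cyp17a1, at 0, 17.7 and 6.0 FPKM in Combination libraries and at most 0.709 FPKM elsewhere. Cyp11a1, Cyp11b1 and Cyp21a1 were above 0 but under the filter, with no value above 1.78 FPKM, and Cyp24a1 was read in 1 library at 0.0348 FPKM. Cyp26a1, which clears retinoic acid, was at 0.866, 20.5 and 2.70 FPKM in Combination, 0.385, 0.768 and 3.48 FPKM in GC, 0.154, 0.557 and 0.841 FPKM in ICB and 0, 0.572 and 0 FPKM in Control libraries (2.19 ± 0.76, limma adjusted p = 0.111). Its relative Cyp26b1 was highest in Control replicate 1, at 27.5 FPKM, and lay between 0.559 and 7.83 FPKM in the other 11 libraries.

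The 3 Combination libraries did not carry the same set of P450 genes. Cyp2c65, Cyp2c66 and Cyp4f40 were above 0 only in replicate 1, at 9.14, 5.23 and 1.75 FPKM, and Cyp2c65 and Cyp2c66 are known from mouse intestine. Replicate 1 also held the highest value of Cyp2s1, an epithelial P450, at 7.03 FPKM against 0.216 and 1.63 FPKM in replicates 2 and 3, and of Cyp4f16, at 22.4 FPKM against 3.08 and 8.43 FPKM. Conversely, Cyp2f2, Cyp2c40, Cyp2d9, Cyp3a41a, Cyp3a44 and all Cyp4a members were listed at 0 in replicate 1. Relative to albumin, replicate 1 carried 234 FPKM of Cyp4f14 per 1000 FPKM of Alb, against 2.41 and 2.89 in replicates 2 and 3, 120.4 of Cyp2b10 against 1.40 and 0.870, and 180.2 of Cyp3a11 against 23.2 and 19.5. For Cyp2c70 the same ratio was 6.0, 11.1 and 8.26, and for Cyp2c29 8.36, 8.93 and 15.0, so these genes kept a similar ratio to albumin in all 3.

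When Combination replicate 1 was left out, 53 of 63 tested P450 genes were higher and 2 were lower in Combination than in Control, among 26.3% of all genes called. The 2 lower ones were Cyp20a1 (-1.04 ± 0.34, limma adjusted p = 0.0439) and Cyp4f18 (-1.71 ± 0.36, limma adjusted p = 0.007). All of the 13 genes above remained called. Cyp3a41a then differed by 7.90 ± 0.43, Cyp2c29 by 8.33 ± 0.53 and Cyp7a1 by 5.81 ± 0.35. In this fit Combination consisted of the 2 libraries richest in hepatocyte transcripts, and Cyp3a41a was above 0 in these 2 alone. With all libraries, 37 of the 64 members pass the filter only through the Combination libraries. The count of 53 therefore does not measure how often P450 genes differ.

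GC against Control asked about chemotherapy alone. No P450 gene passed the threshold in this comparison, in which 0.00783% of all genes did, and the smallest adjusted p by limma among members was 0.222. At an unadjusted p under 0.05 there were 9 of 64, against 9.86% of all genes. Every GC library lay above every Control library for 31 of 64 members, against 18.6% of all genes, and below for 1, Cyp2c55, against 9.29%. The median difference was 0.62 for P450 genes and 0.09 for all genes. The genes of smallest p were Cyp2d26 (2.91 ± 0.79), Cyp3a11 (3.72 ± 1.04), Cyp1b1 (1.56 ± 0.50), Cyp2e1 (4.70 ± 1.51) and Cyp4f14 (1.45 ± 0.50).

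GC replicate 3 held the most liver-type P450 signal outside the Combination group, with 46 members at 1 FPKM or more against 26 and 30 in GC replicates 1 and 2. Cyp1b1, which is expressed outside the liver and oxidises oestrogens and polycyclic hydrocarbons, behaved otherwise. It was at 1.36, 0.246 and 1.07 FPKM in Combination, 2.86, 11.3 and 3.87 FPKM in GC, 4.11, 1.36 and 4.64 FPKM in ICB and 2.10, 0.513 and 0.941 FPKM in Control libraries. All GC values lay above all Control and all Combination values, and the highest was in the library rich in skeletal muscle. When Combination replicate 1 was left out, which leaves these groups as they were but lowers the shared estimate of spread, 8 P450 genes were higher in GC than in Control (Cyp2c44, Cyp2c50, Cyp2d10, Cyp2d26, Cyp2d37-ps, Cyp2e1, Cyp3a11 and Cyp7b1), among 2.32% of all genes called.

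ICB against Control asked about blockade alone, and no P450 gene passed the threshold, nor did any other gene (0% called by limma). The smallest adjusted p among members was 1, and 1 of 64 had an unadjusted p under 0.05, against 1.75% of all genes. Every ICB library lay above every Control library for 8 of 64 members, against 4.65% of all genes, and below for 0, against 4.67%. The 8 were Cyp2c44, Cyp2d10, Cyp2d26, Cyp2j5, Cyp3a13, Cyp4a32, Cyp4v3 and Cyp7b1. The 5 genes of smallest p were Cyp2d26 (1.79 ± 0.79), Cyp1b1 (0.97 ± 0.50), Cyp46a1 (0.75 ± 0.44), Cyp4v3 (0.40 ± 0.29) and Cyp2d10 (1.98 ± 1.47). Cyp2d10, a hepatic family 2 gene, was at 0.925, 3.28 and 6.43 FPKM in ICB libraries and 0 in all Control libraries.

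Combination against GC asked what blockade added to chemotherapy, and Combination against ICB what chemotherapy added to blockade. Both share the Combination libraries with each other and with the comparison against Control, so their results are not independent. Against GC, 4 P450 genes rose and 0 fell, where 0.666% of all genes were called and 0.642% were called higher. They were Cyp2b10 (4.88 ± 0.42, limma adjusted p = 0.000802), Cyp4f14 (4.59 ± 0.50, 0.00227), Cyp3a13 (3.58 ± 0.43, 0.003) and Cyp4v3 (1.98 ± 0.29, 0.00881). Among the 27 members that pass the filter without Combination libraries, 1 rose (Cyp4v3), where 0.287% of 12200 such genes were called. Next in order of p was Cyp2d26, whose difference was 3.99 ± 0.79 (limma adjusted p = 0.0508). Every Combination library lay above every GC library for 12 of 64, against 4.16% of all genes, and below for 2, Cyp1b1 and Cyp4f18, against 14.2%. The 64 include the 37 members that pass the filter only through the Combination libraries.

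Against ICB, 9 P450 genes rose and 0 fell, where 2.24% of all genes were called and 2.05% were called higher. Besides the 4 of the comparison with GC, these were Cyp3a11 (6.78 ± 1.04), Cyp2d26 (5.10 ± 0.79), Cyp3a25 (4.56 ± 0.76), Cyp2c68 (4.88 ± 0.91) and Cyp2j6 (1.74 ± 0.31), with limma adjusted p-values between 0.00597 and 0.0182. Among the 27 members that pass the filter without Combination libraries, 4 rose (Cyp2d26, Cyp2j6, Cyp3a11 and Cyp4v3), where 1.52% of 12200 such genes were called. Of the 64 members, 37 pass the filter only through the Combination libraries. Every Combination library lay above every ICB library for 25 of 64, against 9.47% of all genes, and below for 1, against 10.1%. That 1 was Cyp1b1, whose highest Combination and lowest ICB values were both 1.36 FPKM after rounding. Without Combination replicate 1, 51 genes were higher and 3 lower than in GC (24.9% of all genes called), and 52 were higher and 1 lower than in ICB (17.1%). Cyp4f18 was lower in both of these fits, whose counts rest on the same filter.

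The interaction compared the effect of both treatments together with the sum of the effects of each. It was called for 1 of 64 P450 genes, Cyp2b10, where 0.0157% of all genes were called. The difference was 4.88 ± 0.60 (limma adjusted p = 0.0278), and Cyp2b10 is among the 37 members that pass the filter only through the Combination libraries. Its call was lost without any 1 of 9 of the 12 libraries, kept without Combination replicate 1, 2 or 3, and had an adjusted p between 0.00107 and 0.287 by limma over all alternatives. Next came Cyp4f14 (4.43 ± 0.71), Cyp3a13 (3.13 ± 0.61), Cyp4v3 (1.59 ± 0.40) and Cyp1b1 (-2.72 ± 0.71), with limma adjusted p-values between 0.0749 and 0.335. Any difference among the 4 groups was called for 9 of the 64, those 37 included, against 1.83% of all genes.

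A smaller set of members had signal in every library. Cyp20a1 (chr1:60343323-60388060, plus strand) was at 25.2, 8.93 and 19 FPKM in Combination, 23.2, 20.5 and 19.8 FPKM in GC, 28, 22.2 and 20.7 FPKM in ICB and 19.4, 31.3 and 35.6 FPKM in Control libraries. Groups overlapped, the lowest value being in the library with the most hepatocyte transcripts, and the difference of Combination from Control was -0.74 ± 0.35 (limma adjusted p = 0.201). Cyp4f13, a fatty acid hydroxylase, was at 23.3 ± 10.03 FPKM in Combination, 14.3 ± 1.91 FPKM in GC, 16.8 ± 3.03 FPKM in ICB and 13.7 ± 2.84 FPKM in Control (SD, n = 3 each). Cyp4f18, known from neutrophils and other myeloid cells as a leukotriene hydroxylase, was at 9.26, 2.07 and 2.66 FPKM in Combination, 15.9, 11.9 and 24.9 FPKM in GC, 8.84, 8.82 and 8.5 FPKM in ICB and 6.04, 11.3 and 14.4 FPKM in Control libraries. Combination lay wholly below GC for this gene, and the difference was -1.87 ± 0.45 (limma adjusted p = 0.104). Cyp4f18 overlaps Zfp961 on the opposite strand.

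Cyp2c55, known from the intestine, was at 5.95, 1.08 and 2.87 FPKM in Combination, 3.19, 2.51 and 2.13 FPKM in GC, 5.15, 3.34 and 2.84 FPKM in ICB and 3.67, 4.35 and 7.30 FPKM in Control libraries. Unlike the intestinal Cyp2c65 and Cyp2c66, it was thus read in every library, with its highest value in Control replicate 3. Cyp4f16 and Cyp4f17 also overlapped between Combination and Control, with Combination means of 11.3 ± 9.96 and 2.21 ± 1.15 FPKM against Control means of 10.6 ± 3.06 and 2.82 ± 0.749 FPKM (SD, n = 3 each).

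**Figure D4:**
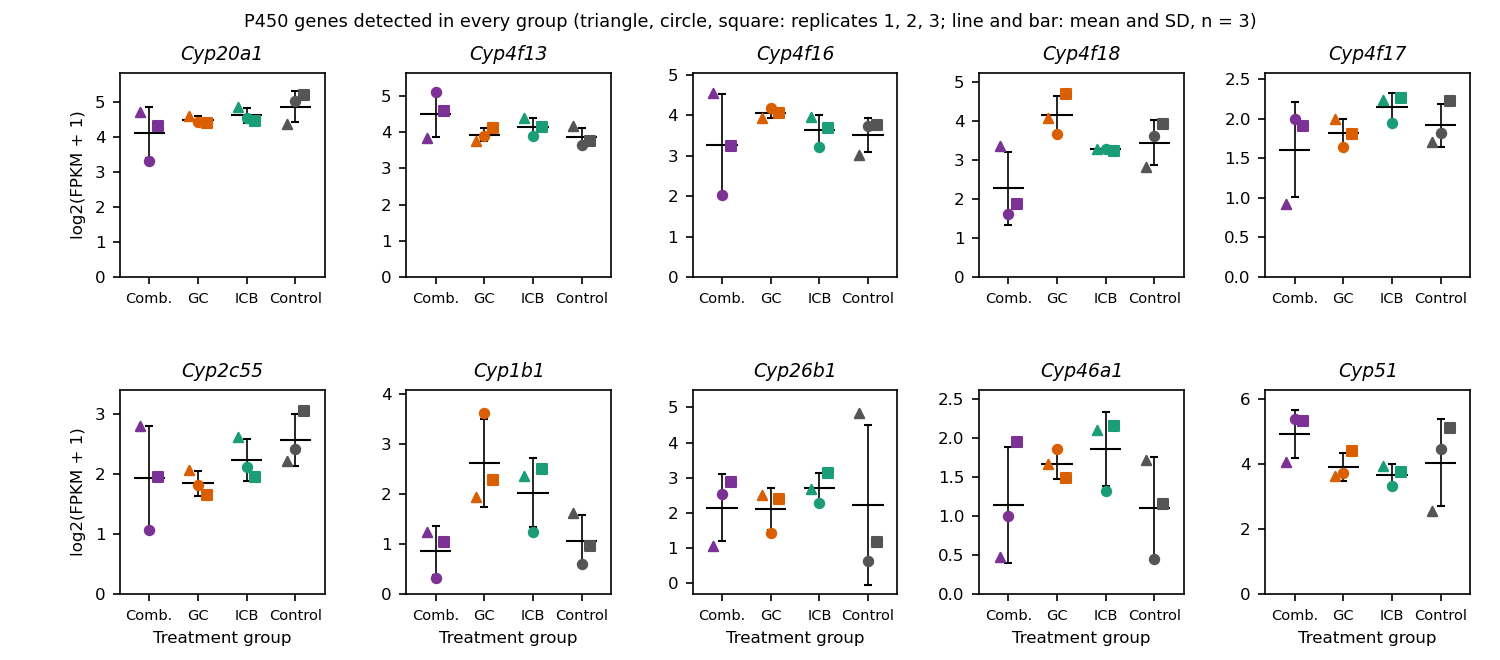
P450 genes with signal in every library, as log2(FPKM + 1) by treatment group (triangle, circle and square for replicates 1, 2 and 3, with the mean and SD of 3 libraries). Cyp20a1, Cyp4f13 and Cyp4f17 overlap between all groups, Cyp1b1 and Cyp4f18 are lower in all Combination libraries than in all GC libraries, and the Control mean of Cyp26b1 is set by replicate 1 at 27.5 FPKM.

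Genes known to differ between the livers of male and female mice separated libraries within and across the groups. The 4 Y-linked transcripts Ddx3y, Eif2s3y, Kdm5d and Uty were at 0 in all 3 Combination libraries, GC replicate 1, ICB replicate 3 and Control replicate 3, and Ddx3y, Eif2s3y and Kdm5d were above 0 in the other 6 libraries. Xist, the X-linked transcript of cells with an inactive X chromosome, lay between 21.9 and 98.1 FPKM in all 12 libraries, those 6 included. Of the P450 genes higher in female liver, Cyp3a41a was at 461 and 123 FPKM in Combination replicates 2 and 3 and listed at 0 in the other 10 libraries. Cyp2a4 was at 223 and 154 FPKM and Cyp2b9 at 132 and 63.0 FPKM in the same 2 libraries, against at most 0.636 FPKM in any other. The other 5 genes of this list (Cyp2b13, Cyp3a41b, Cyp3a44, Cyp3a16 and Cyp17a1) likewise had their 2 highest values in Combination replicates 2 and 3. Of 8 genes in this list, 0 rose or fell by the test of Combination against Control.

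Of the detected genes known as higher in male liver, Cyp2d9 and Cyp4a12a were highest in GC replicate 3 and Cyp7b1, whose values are given above, in Combination replicate 2. Cyp2d9 was at 0, 20.8 and 8.89 FPKM in Combination, 2.51, 3.42 and 25.2 FPKM in GC, 0.200, 1.11 and 1.72 FPKM in ICB and 0.219, 0 and 0 FPKM in Control libraries. Per 1000 FPKM of albumin, Cyp2d9 was at 0, 0.459 and 0.527 in Combination libraries and at 5.69, 19.6 and 28.2 in GC libraries. Cyp4a12a was at 2.51 FPKM in GC replicate 3 and 0.250 FPKM in GC replicate 2, at 0.0584 FPKM in Combination replicate 2 and at 0 elsewhere. Since no Combination library held the Y-linked transcripts, treatment and whatever they mark cannot be told apart in that group. With their presence as a term in the fit, an alternative added after their levels were seen, 8 P450 genes rose in Combination against Control, among 1.21% of all genes called by limma. The calls of Cyp27a1, Cyp2c29, Cyp2c54, Cyp2e1 and Cyp2j6 were lost in that fit.

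**Figure D5:**
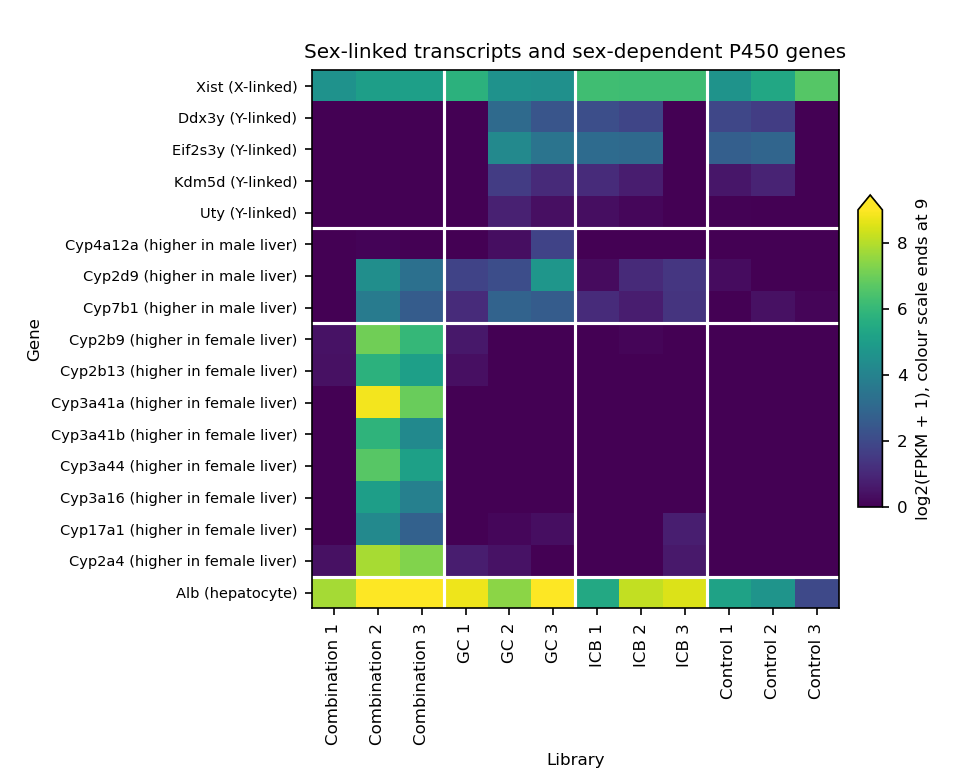
Heat map of log2(FPKM + 1) for sex-linked transcripts, P450 genes known as higher in male or in female mouse liver, and albumin (rows) in 12 libraries (columns, in the order Combination, GC, ICB and Control). The 4 Y-linked rows are at 0 in all Combination libraries, and the female-liver genes are bright in Combination replicates 2 and 3, with Cyp3a41a at 461 and 123 FPKM.

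Some of these copies are nearly identical, so their split is uncertain. In GENCODE M21, 98.6% of the 50-base windows of Cyp3a41a and 93.5% of those of Cyp3a41b occurred in another P450 gene, and the share was 72.1% for Cyp2c40, 54.8% for Cyp2c69, 52.8% for Cyp2c67 and 48.9% for Cyp4a12a. Of the 86 members, 13 overlap a gene on the opposite strand.

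A pair of P450 genes is used in liver as marks of position along the lobule, Cyp2e1 near the central vein and Cyp2f2 near the portal tract. Cyp2f2 was at 0, 353 and 136 FPKM in Combination, 0.0587, 2.96 and 2.21 FPKM in GC, 0, 0.250 and 0 FPKM in ICB and 0, 0.151 and 0 FPKM in Control libraries, so that in Combination replicates 2 and 3 it stood well below the 1442 and 998 FPKM of Cyp2e1. Per 1000 FPKM of albumin, Cyp2e1 was at 64.8, 31.8 and 59.2 in Combination, 40.7, 173 and 155 in GC, 13, 30.9 and 34.7 in ICB and 14.1, 89.9 and 0 in Control libraries. The ratios of Combination and GC overlapped, unlike those of Cyp2d10, which were 3.63, 5.76 and 7.19 in Combination and 15.7, 15.9 and 30.5 in GC libraries. Cyp1a2, also pericentral and a target of Ahr, was at 0.599, 124 and 115 FPKM in Combination, 0.452, 2.5 and 13.5 FPKM in GC and at most 0.242 FPKM in ICB and Control libraries.

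The remaining members fell into a liver-type set and a set with little signal. Cyp2a22, Cyp2c38, Cyp2c39, Cyp2d13, Cyp2d40 and Cyp3a59 had their 2 highest values in Combination replicates 2 and 3, between 10.7 and 154 FPKM, and were at most 3.05 FPKM elsewhere. Cyp2d11 was high in Combination replicate 2 alone, at 22.8 FPKM. Under the filter, Cyp2r1, a vitamin D 25-hydroxylase, was at 0.158, 5.68 and 3.02 FPKM in Combination and 0 in all Control libraries. Cyp27b1, which activates vitamin D, reached 0.467 FPKM in Control replicate 1, and Cyp2ab1 had its highest value, 2.13 FPKM, in the same library. Cyp2d34, Cyp2g1, Cyp2t4, Cyp4a31, Cyp4b1-ps2, Cyp4f37 and Cyp4f41-ps did not exceed 4.44 FPKM in any library.

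The genes that serve or regulate P450 enzymes were read from lists of related genes. Of 7 electron donors, 1 rose in Combination against Control, Cyb5a, which was at 159, 1112 and 656 FPKM in Combination and 58.7, 72.0 and 87.6 FPKM in Control libraries (2.75 ± 0.58, limma adjusted p = 0.0226). P450 reductase (Por) was at 77.4, 109.7 and 165 FPKM in Combination and at 91.6, 64.2 and 71.4 FPKM in Control libraries, and did not pass the test. Among the nuclear receptors and regulators of P450 genes, Hnf4a, Nr1h3, Nr1h4, Nr1i2 and Nr1i3 rose. Hnf4a was at 16.2, 140.04 and 59.7 FPKM in Combination, 4.22, 2.01 and 12.5 FPKM in GC, 0.624, 2.39 and 2.45 FPKM in ICB and 0.146, 0.0779 and 0 FPKM in Control libraries, an order that follows that of albumin except in Combination replicate 1. Nr1i3 was at 2.68, 38.5 and 33.2 FPKM in Combination and at most 1.33 FPKM elsewhere. Of 8 enzymes of haem synthesis, 2 rose (Alas1 and Alad). Of 7 tested pericentral genes 3 rose, of 10 periportal genes 4, of 20 hepatocyte markers 17 and of 14 tested small intestinal markers 4, and 0 fell in any of these lists. In this comparison 3.55% of all genes were called higher. The 4 intestinal markers were Anpep, Apoa4, Dpp4 and Fabp2, which had signal in all 3 Combination libraries. Lct, Sis, Alpi and Defa24 were not called, and were at most 0.141 FPKM in Combination replicates 2 and 3.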

How the data were processed

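RNA of 12 tumour samples was made into libraries with stranded Qiagen kits, per the labels' protocols. FastQC, cutadapt, HISAT2, SAMtools and HTSeq are named with build mm10 in the submitters' processing notes, with no versions. The deposited values are FPKM per gene symbol, computed by the authors; the step that made them, the strand setting and the treatment of reads shared by gene copies are not given in the sources used here. Whole reads could not be recovered from the FPKM steps (over 66 library pairs, a median of 11.1% and at most 17.3% of ratios fell in the fullest bin of width 0.1), so the depth is unknown. Library sums ran from 547146 to 660067 FPKM. No libraries held identical values.

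Tests used limma 3.58.1 (R 4.3.3) on log2(FPKM + 1) with group means, an intensity trend and 8 residual degrees of freedom, over the 12765 genes whose mean reached 1 FPKM, with Benjamini-Hochberg adjustment and a threshold of 0.05. The pseudocount understates changes of low genes. The fit was tested on simulated data in which each gene had the same spread in all groups. P450 levels here varied most in Combination, so that test does not check the p-values given above. Tables and plots were made with Python 3.11.15, pandas 2.3.3, numpy 2.4.6 and matplotlib 3.10.9. Members and lists were chosen with earlier results of these data known. Genes were named as follows: in each comparison up to 10 called members of largest difference, or the 5 of smallest p where fewer than 5 were called; the 10 with the highest mean; and tested members of the role lists, those under the filter by their range. Gene positions and transcripts were taken from GENCODE M21 (84 members located) and promoters from RefSeq. A regulator of P450 genes is not reported here. Alternatives changed the filter, pseudocount, scaling, trend, samples, covariates and the replicate block.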

Additional observations from a re-analysis of the deposited data

Results flagged for a closer look

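For Cyp2b10, the effect of both treatments together differed from the sum of the separate effects by 4.88 ± 0.60 on the log2(FPKM + 1) scale (limma adjusted p = 0.0278), with all 3 Combination libraries above all 9 others. Cyp2b10 passes the filter only through the Combination libraries and was at most 0.0809 FPKM elsewhere, so this difference is in effect its Combination level. The call was lost without any 1 of 9 of the 12 libraries. For 2 further genes, every library lay on one side of the mean of the group it was set against, and on the opposite side in the same contrast within the other groups, a difference that was not tested in that form. Cyp1b1 was lower in Combination than in ICB by a mean difference of -2.48 FPKM and higher in GC than in Control by 4.83 FPKM. It was likewise lower in Combination than in GC, at -5.13 FPKM, and higher in ICB than in Control, at 2.19 FPKM. Cyp51 differed by 17.4 FPKM between Combination and GC and by -7.85 FPKM between ICB and Control. In limma's test of the interaction on the log2 scale, the difference was -2.72 ± 0.71 for Cyp1b1 (adjusted p = 0.335) and 1.37 ± 0.82 for Cyp51 (adjusted p = 0.659).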

How the results depend on the processing

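The count of P450 genes called depended most on 1 library. Leaving out each library in turn gave between 9 and 55 genes for Combination against Control (13 with all libraries), 3 to 54 for Combination against GC (4), 6 to 53 for Combination against ICB (9), 0 to 8 for GC against Control (0), 0 to 46 for the interaction (1) and up to 52 for any difference (9), and each highest count was the one without Combination replicate 1. ICB against Control gave 0 under every alternative run. For Combination against Control, a pseudocount of 0.1 gave 30 genes, the hepatocyte marker mean as a covariate 6, leaving out the 2 muscle-rich libraries 8, presence of Y-linked transcripts as a term, added after seeing the data, 8, and fitting only the groups compared 6. For Combination against GC, a filter at a mean of 10 FPKM gave 0, rescaling the libraries to a common sum 7 (6 of them among the 64 genes above), the hepatocyte covariate 9 and only the groups compared 0. For Combination against ICB, the filter at 10 FPKM gave 4 and only the groups compared 3. The hepatocyte covariate gave 12 genes for GC against Control, 11 of them lower and 1 higher (5.28% of all genes called), and 37 for the interaction, 36 of them higher (4.0% of all genes). The interaction had 0 with the filter at 10 FPKM, the pseudocount of 0.1, quantile normalization, without the muscle-rich pair and with the Y-linked term. Any difference gave 4 with the filter at 10 FPKM and 5 with the Y-linked term. Under the hepatocyte covariate 3 differences reversed: Cyp2d10 in ICB against Control (-1.28), and Cyp2c29 (-0.34) and Cyp2c54 (-0.57) in Combination against Control; the cause was not tested. Of 879 alternatives over 39 single-gene results, 768 kept direction and side of the threshold, 90 were no longer past it, 18 were newly past it and 3 reversed.

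With a replicate block, Combination against Control had 20 genes called and the interaction 0. The numbers were not taken to pair the samples: over 18 same-numbered pairs the correlation of deviations ran from -0.236 to 0.416 (median 0.0346), with 8 over 0.1. Depth is unknown, so no lower limit of detection can be given for members listed at 0.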
